A study of Mus musculus with 10 samples.

Results

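The genes described here are *Ido1* and the kynurenine pathway, 9 of the 55487 genes in the count tables. They are *Ido1*, *Ido2*, *Afmid*, *Kynu*, *Kmo*, *Kyat1*, *Kyat3*, *Aadat* and *Ahr*, and each was found by its gene symbol in all 10 libraries. *Ido1* was chosen because of its counts in mammary epithelial cells (MECs), where the genotypes were already known to differ, so its values there are given as a description without a test. The other 8 genes were chosen by their place in the pathway.

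RNA came from MECs and from macrophages of the mammary gland. The donors were females on the BALB/c background, aged 10 wk and in diestrus. *Cebpb*ΔM mice carried *Csf1r*-iCre and *Cebpb* fl/fl, which deletes the transcription factor C/EBPβ in cells that express *Csf1r*, a myeloid receptor. Controls, called WT, were *Cebpb* fl/fl mice negative for Cre, so both genotypes carried the floxed allele. MECs were what remained after depletion of cells with markers of other lineages, and macrophages were selected with antibody to F4/80. For MECs there were 2 libraries of each genotype, numbered 1 and 3 in both, and the MEC libraries numbered 2 that the table header names were not analysed here. For macrophages there were 2 WT libraries, numbered 4 and 5, and 4 *Cebpb*ΔM libraries, numbered 4 to 7. The labels call the deleted genotype a knockdown and do not say whether each library came from a separate mouse, so P-values measure the spread between these libraries.

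Tryptophan is broken down mainly along the kynurenine pathway. IDO1, and to a lesser extent its relative IDO2, open the ring of tryptophan, and the arylformamidase AFMID releases kynurenine from the product. Kynurenine is then hydroxylated by KMO, cleaved by KYNU, or turned into kynurenic acid by the aminotransferases KYAT1, KYAT3 and AADAT. Kynurenine and kynurenic acid can activate AHR, a receptor that enters the nucleus and switches on genes of xenobiotic metabolism. IDO1 is known for its induction by interferon gamma and for restraining T cells by depleting tryptophan.

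Total counts ranged from 25310926 to 27008166 read pairs in MEC libraries and from 16935000 to 20174722 in macrophage libraries. A level is given as CPM, the count scaled to a library of fixed size, after scaling by the trimmed mean of M-values (TMM), and genes are compared with each other only as CPM per kb of exon. A floor of 3 counts corresponds to 0.111 to 0.119 CPM in MEC libraries and 0.149 to 0.177 CPM in macrophage libraries, for counting error only. The 12 macrophage marker genes summed to between 8345 and 16128 CPM in macrophage libraries and to between 33.3 and 57.0 CPM in MEC libraries, where *Itgam* was at 0 in 3 of 4 libraries. The 6 general epithelial markers, including *Krt8* and *Epcam*, summed to between 26686 and 34588 CPM in MECs and were still at 4863 to 9282 CPM in macrophage libraries, with 0 of 6 markers at 0. In such bulk samples, fewer cells of a type and less RNA per cell cannot be told apart. *Cebpb* itself had 13 and 15 counts in macrophages of WT 4 and 5 and 16, 13, 5 and 4 counts in those of *Cebpb*ΔM 4, 5, 6 and 7. These ranges overlap at a level below the filter for testing, so this count did not separate the genotypes in macrophages, where the deletion is directed. In MECs, *Cebpb* had 25 and 28 counts in WT and 69 and 42 counts in *Cebpb*ΔM, which do not overlap (log2 fold change 1.06, SE 0.47, adjusted P = 0.890 by the quasi-likelihood (QL) test of edgeR, adjusted over all genes). *Cebpb* shares 312 exon bases with *Tmem189* on the opposite strand.

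Ranked by CPM per kb, *Ido1* was the highest of the 9 genes in 3 of 4 MEC libraries. It stood at 62.9 and 89.4 CPM per kb in WT MECs and at 8.84 and 29.9 CPM per kb in *Cebpb*ΔM MECs. *Kyat1* was next, with a range of 11.5 to 15.8 CPM per kb in MECs and 7.50 to 14.6 CPM per kb in macrophages, and it exceeded *Ido1* in MECs of *Cebpb*ΔM 1. *Ahr* (1.95 to 4.38 CPM per kb), *Afmid* (0.707 to 1.49) and *Kyat3* (0.602 to 1.02) formed a middle group with like ranges in both cell types. *Kmo* lay among the lowest genes in MECs, with at most 0.0902 CPM per kb, and reached 2.93 to 7.87 CPM per kb in macrophages. *Kynu* did not exceed 0.519 CPM per kb in any library, and the ranges of *Ido2* and *Aadat* began at 0 in both cell types.

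**Figure D1:**
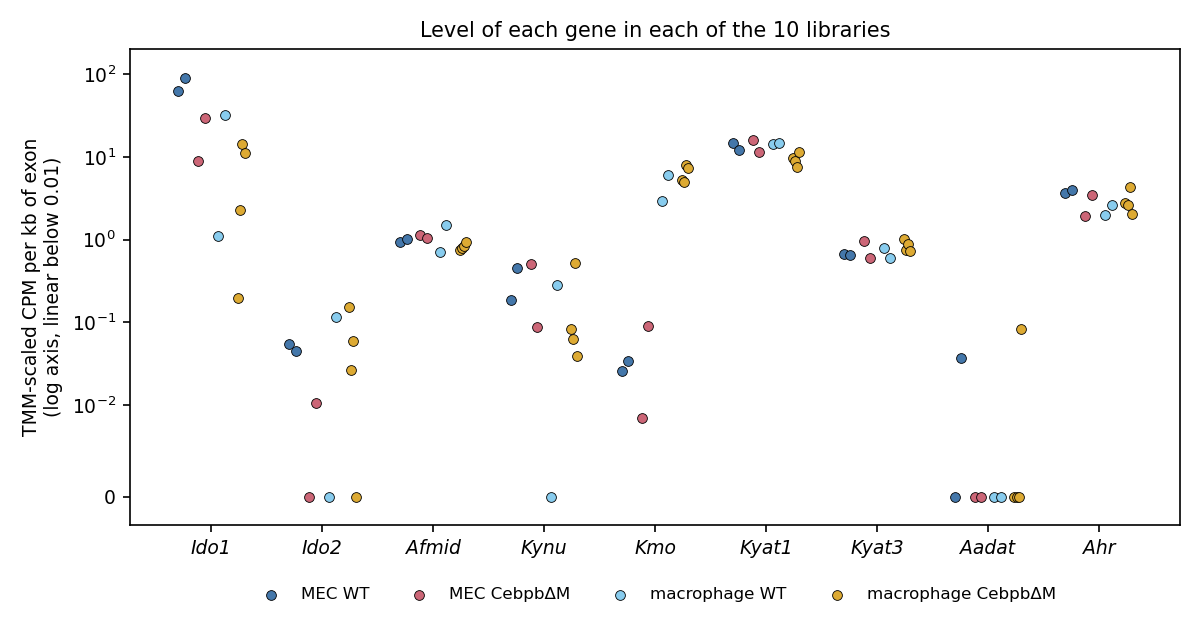
TMM-scaled CPM per kb of exon (y axis, logarithmic above 0.01 and linear below) of the 9 genes (x axis), with 1 point per library and colors for cell type and genotype. Kmo was at 2.93 CPM per kb or more in every macrophage library and at 0.0902 or less in every MEC library, whereas the other detected genes covered overlapping ranges in the 2 cell types.

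Upstream sequences are shown for *Kmo*, the gene whose level separated the cell types, and for *Kyat1*, whose level separated the genotypes in macrophages. RefSeq promoter windows (GRCm38.p6) were at hand for 5 of the 9 genes, *Afmid*, *Kmo*, *Aadat*, *Kyat1* and *Kyat3*. The 250 bases before the start of each gene were searched on both strands for the letters TTGCNNAA, a core of C/EBP sites, GCGTG, the core of AHR response elements, GAGGAA, a core of sites for the myeloid factor PU.1, and TTCNNNGAA, the interferon gamma activated site. Capitals mark the matches, which did not overlap each other. The *Kmo* window is chr1:175631943-175632192 on the plus strand, and the *Kyat1* window is chr2:30205848-30206097, written 5′ to 3′ on the minus strand.
Kmo: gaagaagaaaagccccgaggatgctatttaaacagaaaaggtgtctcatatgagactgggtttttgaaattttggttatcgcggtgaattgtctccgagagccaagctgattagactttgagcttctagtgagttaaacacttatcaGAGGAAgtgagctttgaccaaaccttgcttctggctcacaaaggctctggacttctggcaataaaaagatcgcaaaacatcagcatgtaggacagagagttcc
Kyat1: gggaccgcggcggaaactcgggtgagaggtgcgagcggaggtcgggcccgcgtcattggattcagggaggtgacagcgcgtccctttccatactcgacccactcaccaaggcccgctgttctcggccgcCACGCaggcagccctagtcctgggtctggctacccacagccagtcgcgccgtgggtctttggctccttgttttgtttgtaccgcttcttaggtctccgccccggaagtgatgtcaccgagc

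The *Kmo* window holds 1 match to GAGGAA, which 23.3% of 32851 promoter windows also hold. The *Kyat1* window holds 1 match to GCGTG, written in capitals on the other strand, and *Kyat3* holds 2, against 28.2% of all windows with at least 1. The letters TTGCNNAA occurred in 0 of the 5 windows and in 9.56% of all windows, and TTCNNNGAA occurred in 0 of the 5 and in 7.02% of all. A missing match says only that these letters are not in this window. The *Kmo* window lies inside the span of *Kmo* as it was counted, which begins at chromosome 1 position 175620381, so it belongs to the RefSeq start only.

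*Ido1* (ENSMUSG00000031551, chromosome 8 from 24584136 to 24597009, minus strand, GRCm38) encodes the rate-limiting first enzyme of the pathway outside the liver. It was counted 2843 and 4027 times in MECs of WT 1 and 3 and 398 and 1409 times in MECs of *Cebpb*ΔM 1 and 3. As levels these are 115 and 163 CPM in WT and 16.1 and 54.6 CPM in *Cebpb*ΔM. Both *Cebpb*ΔM libraries lay below both WT libraries, and *Cebpb*ΔM 1 was the lowest. The mean was 139 ± 34.3 CPM (SD, n = 2) in WT and 35.4 ± 27.2 CPM (SD, n = 2) in *Cebpb*ΔM, which is 3.93-fold higher in WT. The fitted log2 fold change of *Ido1* in *Cebpb*ΔM as compared to WT was -1.94 (SE 0.45), a description of the difference by which the gene was chosen. It was -3.11 without *Cebpb*ΔM 3 and -1.31 without *Cebpb*ΔM 1, so its size rests on which of these libraries is used. The genotypes did not overlap in 28.2% of all genes tested in MECs. The 6 hormone-sensing luminal markers, including *Esr1* and *Pgr*, summed to 2405 and 3192 CPM in WT 1 and 3 and to 2403 and 2950 CPM in *Cebpb*ΔM 1 and 3 of these MECs. Most of this sum was *Prlr*, at 1726 to 2326 CPM in MECs, so the sum says little of the other markers. Of the 6, only *Prom1* did not overlap between genotypes, and it was lower in *Cebpb*ΔM (log2 fold change -1.38, SE 0.29, QL test adjusted P = 0.122). The luminal progenitor markers summed to 2272 and 3014 CPM in WT and to 3592 and 1440 CPM in *Cebpb*ΔM. Of these markers, only *Kit* did not overlap, and it was lower in *Cebpb*ΔM (log2 fold change -0.78, SE 0.31, QL test adjusted P = 0.749). The part of either luminal cell type in the *Ido1* difference was not tested.

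In macrophage libraries, *Ido1* was counted 40 and 1242 times in WT 4 and 5 and 7, 85, 483 and 342 times in *Cebpb*ΔM 4, 5, 6 and 7. Its levels were 2.0 and 59.0 CPM in WT and 0.355, 4.13, 26.1 and 20.5 CPM in *Cebpb*ΔM. The genotypes overlapped, and the WT libraries alone differed 29.5-fold from each other while the *Cebpb*ΔM libraries differed 73.5-fold. The log2 fold change of *Ido1* in macrophages was -1.29 (SE 1.35), and the QL test did not call it (P adjusted over all genes by Benjamini–Hochberg, 0.854). Without WT 5 the log2 fold change was 2.64, so its direction rests on that library. With only replicates 4 and 5 of both genotypes it was -3.76 (QL test adjusted P = 0.604).

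**Figure D2:**
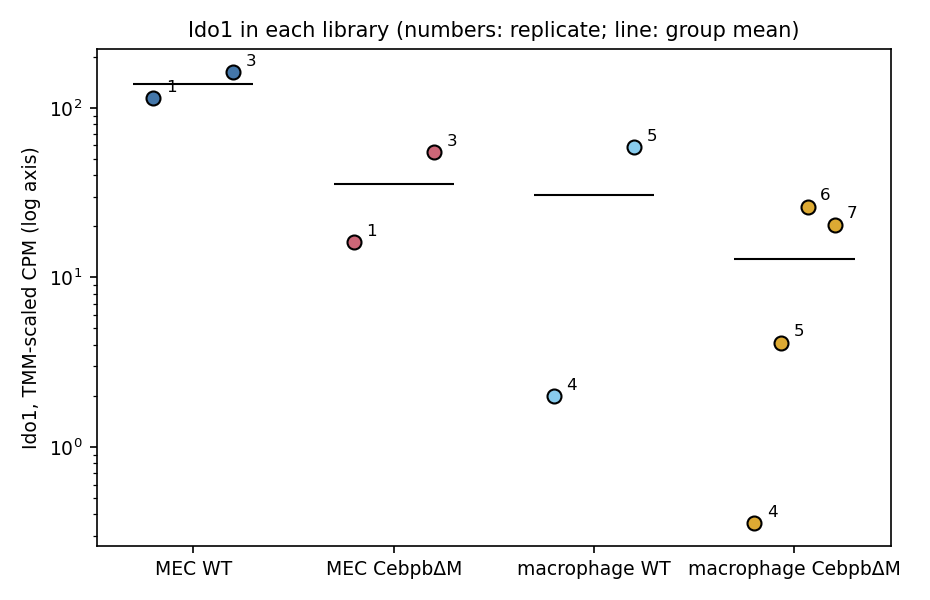
TMM-scaled CPM of Ido1 (y axis, logarithmic) in each library, grouped by cell type and genotype (x axis), with the replicate number beside each point and a line at the group mean. In MECs the WT points (115 and 163 CPM) lie above the CebpbΔM points (16.1 and 54.6 CPM), and in macrophages the genotypes overlap between 0.355 and 59.0 CPM.

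The level of *Ido1* among macrophage libraries was set beside the markers of other cells. General epithelial markers summed to 9068 and 9282 CPM in WT 4 and 5 and to 5909, 5036, 4863 and 6228 CPM in *Cebpb*ΔM 4, 5, 6 and 7. The epithelial sums of WT 4 and WT 5 were close to each other. What part these or other cells had in the level of *Ido1* was not tested. Hormone-sensing luminal markers were 1678 and 1926 CPM in WT and 675, 739, 1335 and 1784 CPM in *Cebpb*ΔM. *Cebpb*ΔM 4 was the lowest library in these markers and in *Ido1*, whereas WT 4, the next lowest in *Ido1*, was among the higher ones in these markers. The 9 dendritic cell markers, of which 0 were at 0 in macrophage libraries, summed to 224 and 295 CPM in WT and to 321, 455, 481 and 630 CPM in *Cebpb*ΔM. T and NK cell markers did not exceed 14.9 CPM in sum and B cell markers did not exceed 17.6 CPM. Fibroblast markers summed to 6532 to 6952 CPM in WT and 3235 to 7577 CPM in *Cebpb*ΔM. Endothelial markers summed to 1074 to 1261 CPM in WT and 846 to 1820 CPM in *Cebpb*ΔM. Basal markers were at 765 to 1126 CPM in WT and 705 to 2816 CPM in *Cebpb*ΔM. Luminal progenitor markers were at 851 to 1071 CPM in WT and 1105 to 1330 CPM in *Cebpb*ΔM. With the mean log2 CPM of the epithelial markers as a covariate, a setting chosen after the data were seen, the log2 fold change of *Ido1* was -6.93 (SE 1.79, QL test adjusted P = 0.310). The epithelial sums did not overlap between genotypes, so this fit cannot tell epithelial content from genotype.

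Between cell types, *Ido1* was higher in MECs of WT than in both WT macrophage libraries, whereas its *Cebpb*ΔM ranges overlapped. The log2 difference of macrophages minus MECs was -2.19 (SE 1.45) in WT and -1.47 (SE 1.18) in *Cebpb*ΔM, given without a test because the MEC libraries were those on which the gene was chosen. MECs and macrophages were isolated by different selections and counted in separate tables, so cell type and preparation cannot be told apart in any such comparison. The difference between the genotype effects, macrophages minus MECs, was 0.71 on the log2 scale (SE 1.87). Its SE was larger than the value itself.

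*Ido2* (ENSMUSG00000031549, chromosome 8 from 24531892 to 24576333, minus strand) lies 7802 nt from *Ido1* and encodes a related dioxygenase of lower activity. Its counts were 5 and 4 in WT MECs, 0 and 1 in *Cebpb*ΔM MECs, 0 and 9 in WT macrophages and 11, 2, 4 and 0 in *Cebpb*ΔM macrophages. *Ido2* thus stayed at or below 0.559 CPM in every library, and it was below the filter in both experiments. Counts of 0 allow up to the floor of 3 counts, so the presence of *Ido2* could not be shown at this depth in the libraries at 0.

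*Afmid* (ENSMUSG00000017718, chromosome 11 from 117825924 to 117839908, plus strand) encodes the formamidase that acts after IDO1. It had 3.31 and 3.57 CPM in WT MECs and 4.06 and 3.68 CPM in *Cebpb*ΔM MECs. Both *Cebpb*ΔM libraries of MECs were slightly above both WT libraries, and the log2 fold change of 0.19 (SE 0.35) did not pass the QL test (adjusted P = 1.0). In macrophages, *Afmid* had 2.50 and 5.27 CPM in WT, a range that contained the 2.64, 2.82, 2.98 and 3.35 CPM of *Cebpb*ΔM. Of its 3539 exon bases, 1566 are shared with *Gm20708* on the same strand, where read pairs cannot be assigned to either gene.

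*Kmo* (ENSMUSG00000039783, chromosome 1 from 175620381 to 175662116, plus strand) encodes kynurenine 3-monooxygenase, which leads kynurenine toward quinolinic acid and NAD. It was counted 277 and 605 times in WT macrophages and 495, 484, 687 and 573 times in *Cebpb*ΔM macrophages, but only 3, 4, 1 and 11 times in MECs of WT 1, WT 3, *Cebpb*ΔM 1 and *Cebpb*ΔM 3. In CPM, macrophages had 13.9 and 28.7 in WT and 25.1, 23.5, 37.2 and 34.3 in *Cebpb*ΔM, against at most 0.426 in MECs. Every macrophage library was above every MEC library. Pooled over libraries, *Kmo* was 152-fold higher in WT macrophages than in WT MECs (95% exact counting interval 73.4 to 379) and 125-fold higher in *Cebpb*ΔM (71.3 to 242). These intervals cover counting error only and leave out the spread between libraries.

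The fitted log2 difference of *Kmo*, macrophages minus MECs, was 7.18 (SE 0.71) in WT and 6.95 (SE 0.65) in *Cebpb*ΔM. *Kmo* entered the fit through its macrophage libraries alone, because no MEC library reached 1 CPM, so these values are a description and no test of them is given. Of the 5 other members in this fit, *Ido1* aside, 0 passed the QL test between cell types in either genotype. Of all genes, 14.8% were called higher and 10.7% lower in WT macrophages, and 18.9% and 14.7% in *Cebpb*ΔM. With so few members, 0 calls cannot be told from these shares. Macrophage and MEC libraries differed in the same direction in their macrophage marker sums, given above. Between genotypes in macrophages, the log2 fold change of *Kmo* was 0.47 (SE 0.33, QL test adjusted P = 0.750), and WT 5 lay within the *Cebpb*ΔM range.

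*Kynu* (ENSMUSG00000026866, chromosome 2 from 43555329 to 43682715, plus strand) encodes kynureninase. It had 1.13 and 2.76 CPM in WT MECs and 3.08 and 0.542 CPM in *Cebpb*ΔM MECs. In macrophages it was at 0 and 1.76 CPM in WT and at 0.508, 0.388, 3.19 and 0.240 CPM in *Cebpb*ΔM, with *Cebpb*ΔM 6 far above the others. The genotypes overlapped in both cell types, and the log2 fold change was -0.10 (SE 0.69) in MECs and 0.27 (SE 1.54) in macrophages (QL test adjusted P = 1.0 and 0.983).

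*Kyat1* (ENSMUSG00000039648, chromosome 2 from 30185124 to 30205847, minus strand) encodes a kynurenine aminotransferase that also cleaves cysteine conjugates. In macrophages it had 42.2 and 42.6 CPM in WT 4 and 5 and 28.6, 26.1, 21.9 and 33.1 CPM in *Cebpb*ΔM 4, 5, 6 and 7. All 4 *Cebpb*ΔM libraries lay below both WT libraries, a separation seen in 18.6% of all genes tested in macrophages. The mean was 42.4 ± 0.331 CPM (SD, n = 2) in WT and 27.4 ± 4.67 CPM (SD, n = 4) in *Cebpb*ΔM. The log2 fold change of -0.65 (SE 0.20, QL test unadjusted P = 0.0121) did not pass after adjustment over all genes (adjusted P = 0.508). Its adjusted P lay between 0.214 and 0.797 in all other settings tried.

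The general epithelial marker sums of the macrophage libraries, given above, also separated the genotypes, with both WT libraries highest. Singly, 3 of these 6 markers did so, all of them keratins, and the others overlapped. Basal epithelial marker sums overlapped between genotypes, with 1126 and 765 CPM in WT 4 and 5. In *Cebpb*ΔM 4, 5, 6 and 7 the basal sums were 2816, 1792, 1828 and 705 CPM. With the general epithelial markers as a covariate, the log2 fold change of *Kyat1* was -0.43 (SE 0.33, QL test adjusted P = 0.711). Because the epithelial sums separated the genotypes, this fit cannot tell epithelial content from genotype. The part of epithelial cells in the *Kyat1* difference was not tested. In MECs, *Kyat1* had 43.0 and 35.9 CPM in WT and 46.2 and 33.7 CPM in *Cebpb*ΔM, and the *Cebpb*ΔM range contained both WT libraries (log2 fold change 0.04, SE 0.23, QL test adjusted P = 1.0). The genotype effect in macrophages minus that in MECs was -0.65 (SE 0.32, QL test adjusted P = 0.967). Between cell types in *Cebpb*ΔM, the log2 difference of *Kyat1* was -0.54 (SE 0.21, QL test adjusted P = 0.0670), with all *Cebpb*ΔM macrophage libraries below both *Cebpb*ΔM MEC libraries. This difference passed the threshold without MECs of *Cebpb*ΔM 3 (adjusted P = 0.0492) or without macrophages of *Cebpb*ΔM 7 (QL test adjusted P = 0.0481). In WT the same difference was 0.11 (SE 0.24, QL test adjusted P = 0.791).

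**Figure D3:**
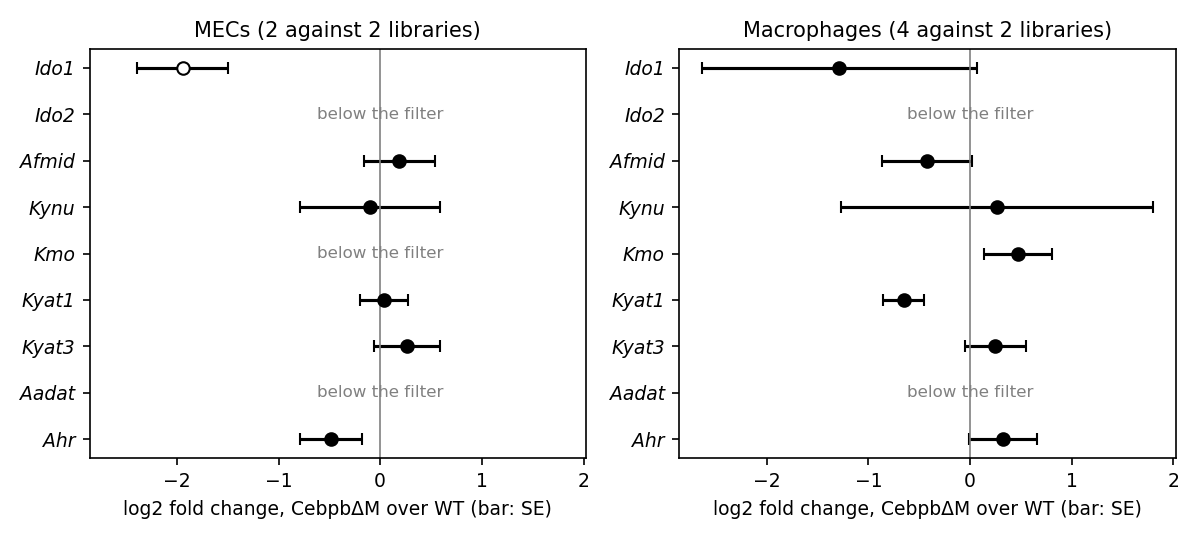
Log2 fold change of CebpbΔM as compared to WT (x axis, bars are SE) for each of the 9 genes (y axis) in MECs and in macrophages. The open point, Ido1 in MECs at -1.94, is a description of the difference on which the gene was chosen, the other points were tested and 0 of them passed after adjustment, and genes below the filter have no point.

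*Kyat3* (ENSMUSG00000040213, chromosome 3 from 142701051 to 142746870, plus strand) encodes another kynurenine aminotransferase. It had 6.37 and 6.16 CPM in WT MECs and 9.16 and 5.73 CPM in *Cebpb*ΔM MECs. In macrophages it had 7.60 and 5.74 CPM in WT and 9.75, 7.19, 8.39 and 6.89 CPM in *Cebpb*ΔM. The ranges overlapped in both cell types, with log2 fold changes of 0.26 (SE 0.32) in MECs and 0.25 (SE 0.30) in macrophages (QL test adjusted P = 1.0 and 0.880). *Kyat3* shares 264 exon bases with *Gm15540* on the opposite strand.

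*Aadat* (ENSMUSG00000057228, chromosome 8 from 60505932 to 60545677, plus strand) encodes an aminotransferase that is best known from liver and kidney. It had 2 counts in MECs of WT 3, 3 counts in macrophages of *Cebpb*ΔM 7 and 0 in the other 8 libraries. *Aadat* was thus at or below the floor of 3 counts throughout, and no fold change is given.

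*Ahr* (ENSMUSG00000019256, chromosome 12 from 35497974 to 35535038, minus strand) encodes the receptor for kynurenine and many xenobiotics. In MECs it had 22.6 and 24.6 CPM in WT 1 and 3 and 12.04 and 21.1 CPM in *Cebpb*ΔM 1 and 3. Both *Cebpb*ΔM libraries were lower, *Cebpb*ΔM 3 only slightly, and the log2 fold change of -0.48 (SE 0.30) did not pass the QL test (adjusted P = 1.0). *Ahr* and *Afmid* were the 2 of 5 other members tested in MECs whose genotypes did not overlap, in opposite directions, beside 28.2% of all genes tested. In macrophages, *Ahr* had 12.1 and 16.3 CPM in WT and 17.1, 16.0, 27.0 and 12.5 CPM in *Cebpb*ΔM, which overlapped (log2 fold change 0.32, SE 0.33, QL test adjusted P = 0.850). WT macrophages were lower in *Ahr* than WT MECs by a log2 difference of -0.73 (SE 0.38, QL test adjusted P = 0.183), with no overlap between them. The genotype effect in macrophages minus that in MECs was 0.86 (SE 0.50, QL test adjusted P = 0.990). *Ahr* shares 127 exon bases with *Gm48236* on the opposite strand.

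Leaving aside *Ido1* in MECs, for which no test is given, 0 of the members tested passed the genotype test in either cell type. In MECs 0 of 5 other members tested passed, against 0.051% of all genes, or 8 of 15698, and their median log2 fold change was 0.04 beside -0.01 for all genes tested. In macrophages 0 of 7 members passed, against 0% of all genes, and their median log2 fold change was 0.25 beside 0.00 for all. The QL test called 0 of 17772 genes in macrophages, where 1534 had an unadjusted P under 0.05, the likelihood ratio test called 138 and DESeq2 called 201. For the difference between the genotype effects, 0 of 6 other members and 0% of 18323 genes were called, with 951 genes at an unadjusted P under 0.05, and the likelihood ratio test called 53.

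Around the members, 7 lists of pathway genes were counted in the same fits, and 0 genes of any list passed the genotype test in MECs or macrophages. Among other enzymes of the kynurenine and NAD routes, 10 of 14 were tested in MECs (median log2 fold change 0.00) and 13 of 14 in macrophages (-0.07). *Ogdh*, a subunit gene of the 2-oxoglutarate dehydrogenase of the citric acid cycle, and *Got2*, a mitochondrial aspartate aminotransferase with kynurenine aminotransferase activity, had the highest levels per kb of this list. In macrophages *Ogdh* had 322 and 311 CPM in WT and 232 to 272 CPM in *Cebpb*ΔM, and the log2 fold change was -0.39 (SE 0.14, adjusted P = 0.523 in the QL test). *Got2* was higher in MECs than in macrophages of *Cebpb*ΔM by a log2 difference, macrophages minus MECs, of -1.34 (SE 0.25, QL test adjusted P = 0.00174), and in WT this was -0.88 (SE 0.30, adjusted P = 0.0504). Of the 13 genes tested between cell types, 1 was higher and 0 were lower in WT macrophages, beside 14.8% and 10.7% of all genes. In *Cebpb*ΔM macrophages 2 were higher and 1 was lower, beside 18.9% and 14.7%. Of these 13, 10 passed the filter in MECs. The rest entered this fit through macrophage libraries, so calls of them are no test. The shares of all genes also include such genes.

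Of tryptophan-using enzymes outside the kynurenine branch, 7 of 8 were tested in either cell type. *Wars*, the tryptophanyl-tRNA synthetase, had log2 fold changes of -0.27 (SE 0.28) in MECs and -0.08 (SE 0.37) in macrophages. *Aldh2*, a mitochondrial aldehyde dehydrogenase, had 211 and 249 CPM in WT macrophages and 266 to 322 CPM in those of *Cebpb*ΔM (log2 fold change 0.33, SE 0.16, QL test adjusted P = 0.612).

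Of 8 transporters of tryptophan and kynurenine tested between cell types, 4 were higher in WT macrophages than in WT MECs and 0 lower, beside 14.8% and 10.7% of all genes. In *Cebpb*ΔM 3 were higher and 1 was lower, beside 18.9% and 14.7%. *Slc7a8*, the light chain of the amino acid exchanger LAT2, had 69.7 and 147 CPM in WT macrophages and 17.4 and 11.02 CPM in WT MECs, a log2 difference of 2.93 (SE 0.37, QL test adjusted P = 2.13e-04). *Slc3a2*, the heavy chain that LAT1 and LAT2 share, had overlapping levels in the cell types, 678 and 744 CPM in WT MECs and 583 and 700 CPM in WT macrophages.

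AHR partners and targets showed no genotype call, with 9 of 13 tested in MECs (median log2 fold change -0.04) and 12 of 13 in macrophages (-0.05). *Hsp90ab1*, a chaperone that holds AHR in the cytoplasm, was higher in MECs than in macrophages, by a log2 difference, macrophages minus MECs, of -0.84 (SE 0.19, QL test adjusted P = 0.00891) in WT. *Tiparp*, an AHR target that restrains the receptor, had log2 fold changes of 0.28 (SE 0.28) in MECs and -0.01 (SE 0.17) in macrophages between genotypes. Across cell types, 2 of the 12 genes tested were higher and 1 was lower in WT macrophages, beside 14.8% and 10.7% of all genes. In *Cebpb*ΔM macrophages 4 were higher and 2 lower, beside 18.9% and 14.7%. Of these 12, 9 passed the filter in MECs. The rest entered this fit through macrophage libraries, so calls of them are no test. The shares of all genes also include such genes.

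The 6 genes of tryptophan sensing, which belong to the response to amino acid shortage through GCN2, were lower in macrophages for 3 genes in WT and 4 in *Cebpb*ΔM, beside 10.7% and 14.7% of all genes, and 0 were higher. *Chac1*, which degrades glutathione, had 113 and 61.1 CPM in WT MECs and 10.3 and 1.28 CPM in WT macrophages (log2 difference -3.92, SE 0.86, QL test adjusted P = 0.00681). *Atf4*, the transcription factor of this response, had a log2 difference of -1.34 (SE 0.24, QL test adjusted P = 0.00222) in WT. Between genotypes, the median log2 fold change of the list was 0.14 in MECs and -0.35 in macrophages, with 1 and 3 of 6 genes at an unadjusted P under 0.05 and 0 called. *Chac1* overlapped between genotypes, at 0.72 on the log2 scale (SE 0.33, adjusted P = 0.918 in the QL test) in MECs and -0.88 (SE 0.81, QL test adjusted P = 0.824) in macrophages. *Atf4* was at 0.12 (SE 0.24) in MECs and 0.44 (SE 0.19, QL test adjusted P = 0.575) in macrophages.

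Regulators of *Ido1* and genes induced by interferon gamma were counted between cell types beside *Ido1*, which in WT was higher in MECs. Of 13 tested regulators, 6 were higher in WT macrophages and 8 in *Cebpb*ΔM macrophages, beside 14.8% and 18.9% of all genes, and 0 were lower. *Irf1*, which interferon gamma induces and which binds the *Ido1* promoter, had a log2 difference of 0.99 (SE 0.27, QL test adjusted P = 0.0223) in WT and 1.51 (SE 0.25, QL test adjusted P = 9.38e-04) in *Cebpb*ΔM. *Socs3*, an inhibitor of cytokine signaling, had 632 and 639 CPM in WT MECs and 663 and 577 CPM in *Cebpb*ΔM MECs. Of the 10 interferon gamma induced genes, 4 were higher in WT macrophages and 6 in *Cebpb*ΔM macrophages, beside the same shares of all genes, and 0 were lower. Of these 10, 9 passed the filter in MECs. The other entered this fit through macrophage libraries, so a call of it is no test. The shares of all genes also include such genes.

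Between genotypes, the 9 interferon gamma induced genes tested in MECs all had log2 fold changes below 0, with a median of -0.39 beside -0.01 for all genes, and 0 of them passed even without adjustment. In macrophages 8 of 10 were above 0, with a median of 0.30 beside 0.00. The difference between the genotype effects was above 0 for 10 of 10, with a median of 0.80 beside 0.04 for all genes and 0 calls. Of these 10, 9 passed the filter in MECs. All were measured in the same libraries, so their shared direction does not count as separate tests. *Psmb8*, an immunoproteasome subunit, had 201 and 266 CPM in WT MECs and 211 and 195 CPM in *Cebpb*ΔM MECs (log2 fold change -0.19, SE 0.22, QL test adjusted P = 1.0). *Irgm1*, an interferon-inducible GTPase, had 106 and 200 CPM in WT MECs and 129 and 103 CPM in *Cebpb*ΔM MECs, and 295 CPM in both WT macrophage libraries and 340, 465, 598 and 340 CPM in those of *Cebpb*ΔM. Its log2 fold change was -0.38 (SE 0.29) in MECs and 0.54 (SE 0.25) in macrophages (QL test adjusted P = 1.0 and 0.597).

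**Figure D4:**
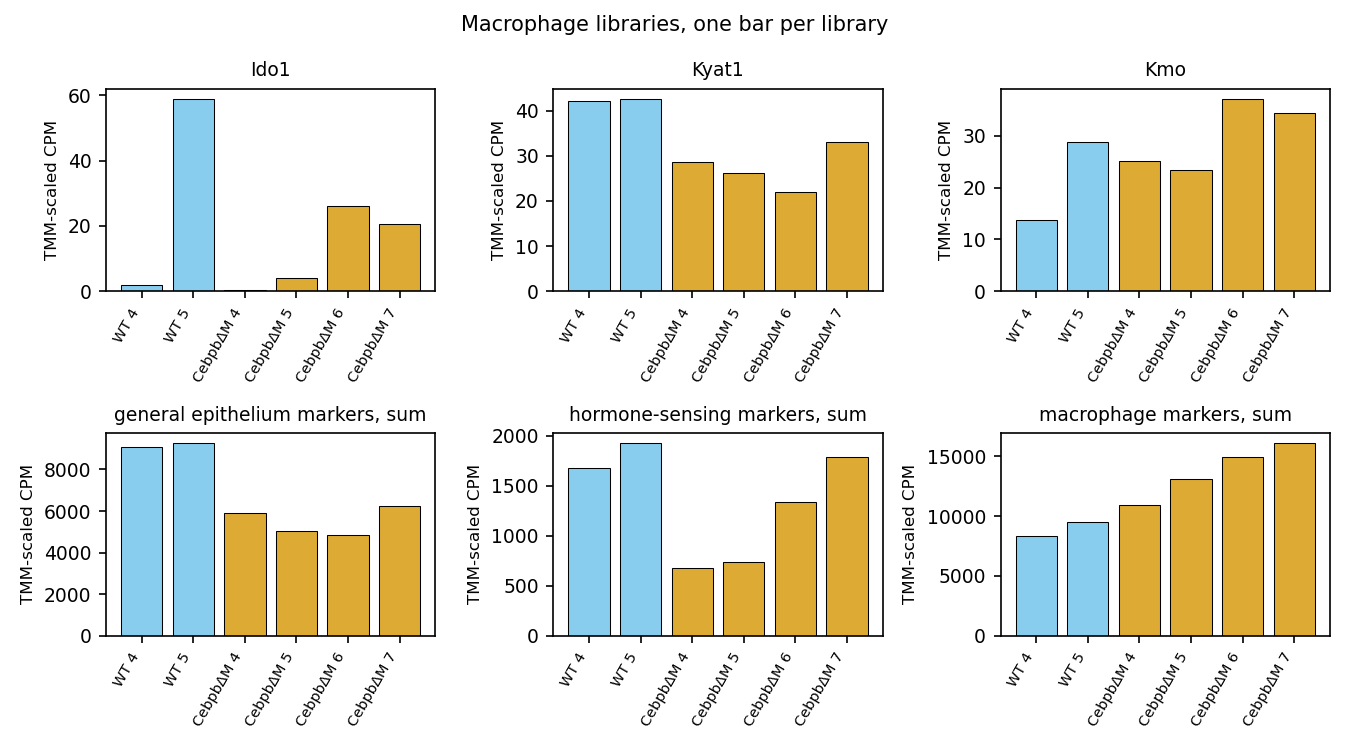
TMM-scaled CPM (y axes, from 0) of Ido1, Kyat1 and Kmo and of summed marker genes for general epithelium, hormone-sensing luminal cells and macrophages in the 6 macrophage libraries (x axes, 1 bar per library). Ido1 was high in WT 5 alone among WT libraries, Kyat1 and the general epithelial sum were highest in both WT libraries, and the macrophage sum was lowest in both WT libraries (8345 and 9469 CPM).

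Finally, genes were ranked by how closely they followed *Ido1*. Each gene's log2 CPM was centered within MECs and within macrophages, and the mean absolute difference from *Ido1* was taken over the 10 libraries for 18323 genes. The nearest gene was *Ptpn5*, a tyrosine phosphatase, with a mean difference of 0.65 on the log2 scale, beside a median of 1.75 for all genes. *Ptpn5* had 168 and 71.5 CPM in WT MECs, 7.71 and 21.997 CPM in *Cebpb*ΔM MECs, 7.003 and 88.4 CPM in WT macrophages and 0.152, 4.66, 17.8 and 25.2 CPM in *Cebpb*ΔM macrophages. As with *Ido1*, both *Cebpb*ΔM MEC libraries were below both WT libraries, and WT 5 was the highest and *Cebpb*ΔM 4 the lowest macrophage library. This likeness follows from the ranking, which used these same libraries, and is no separate support. *Ly6d*, a surface protein of the Ly6 family, followed with 0.78, and had 560 and 628 CPM in WT MECs, 372 and 394 CPM in *Cebpb*ΔM MECs, 31.4 and 317 CPM in WT macrophages and 5.43, 11.5, 252 and 283 CPM in *Cebpb*ΔM macrophages. Then came *Gm2670* (0.80), the potassium channel gene *Kcna2* (0.85) and *Ermap* (0.85), of which *Kcna2* and *Ermap* did not exceed 1 CPM in any MEC library.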

How the data were processed

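RNA from 4 MEC and 6 macrophage libraries, made with a low-input Smart-Seq kit, was sequenced in paired ends. Per the file headers and the study's methods, the authors trimmed reads with Trimmomatic, mapped them to GRCm38 with HISAT2 and counted read pairs on Ensembl release 100 genes by means of featureCounts (version 1.6.2), which kept pairs mapped at both ends with quality 10 or more and counted them as reverse-stranded. Whether the kit keeps strand is not given in the sources used here, so reads of genes on opposite strands may not be separable. The tables deposited by the authors hold raw counts, whole numbers not normalized. All sample columns were used.

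Genes of 300 nt or more that exceeded 1 CPM in 2 or more of the libraries fitted together were tested with edgeR (version 4.0.16, R version 4.3.3), TMM and the QL test, with Benjamini–Hochberg adjustment over all genes and a threshold of 0.05. The study names the likelihood ratio test, run here as an alternative. The filter kept 15698 genes in MECs, 17772 in macrophages and 18323 in the fit of all 10 libraries, which gave cell type differences, the difference between genotype effects, and all levels. Log2 CPM used a prior count of 2. The tests were checked on simulated data. Alternatives included DESeq2 (version 1.42.0), no filter, filterByExpr, relative log expression scaling, a replicate block and leaving out each library. Exon overlaps came from the count tables, symbols from the gene name table given with the reference (55141 genes matched), and promoters from RefSeq. Plots used matplotlib (version 3.10.9), with pandas (version 2.3.3).

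The text names all members, *Cebpb*, the 2 genes of each pathway list with the highest mean CPM per kb, any list gene past the threshold between genotypes (there were 0) and the 5 genes nearest to *Ido1*. Some cell type markers are named as well. Members and lists were chosen with earlier results of these data known.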

Additional observations from a re-analysis of the deposited data

Results flagged for a closer look

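In groups of 4 libraries, the highest or lowest library was compared with the rest by its gap to the nearest library as a share of the whole range, over 9 genes, where chance flags about 1 group in 20. *Kynu* in *Cebpb*ΔM macrophages stood out with a share of 0.909, because *Cebpb*ΔM 6 had 59 counts (3.19 CPM) and the other 3 libraries had 10, 8 and 4 counts. *Aadat* in *Cebpb*ΔM macrophages had a share of 1, because *Cebpb*ΔM 7 had 3 counts and the other 3 libraries had 0, all within the floor of 3 counts.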

How the results depend on the processing

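Under every alternative, the number of members called stayed at 0 for the genotype tests in MECs and macrophages. It also stayed at 0 for the difference between genotype effects. For the cell types it stayed at 1 in WT and was 1 to 2 in *Cebpb*ΔM. Both of these counts include *Kmo*, which entered the fit through its macrophage libraries alone. They are therefore not a test of its difference. In the main fit, 14.8% of all genes were called higher and 10.7% lower in WT macrophages, and 18.9% and 14.7% in *Cebpb*ΔM. The count over all genes moved more. In MECs, where it was 8, it was 179 with the likelihood ratio test, 38 without the filter, 161 with DESeq2, 0 with all 10 libraries in 1 fit, and 2 to 337 with a library left out. The extremes came without WT 3 and without *Cebpb*ΔM 3. In macrophages, where it was 0, it was 138 with the likelihood ratio test and 201 with DESeq2. For the difference between genotype effects it was 53 with the likelihood ratio test and 0 to 1 with a library left out, the 1 without WT 3 of MECs. Between cell types, with a library left out, the count ranged from 2456 to 4846 in WT (4664 with all libraries) and from 3496 to 6556 in *Cebpb*ΔM (6174). It was lowest without MECs of WT 3 and of *Cebpb*ΔM 1. The causes were not tested.

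The labels do not say that replicate numbers mark shared animals or days. Deviations of same-numbered libraries had r = 0.105 in MECs and 0.039 in macrophages across genes. With only 2 pairs each, these values cannot decide whether same-numbered libraries form pairs, and the main tests used no pairing. With the replicate block, the counts of called genes were 205 in MECs, 12 in macrophages and 1 for the difference between genotype effects. Macrophage libraries numbered 6 and 7 exist only in *Cebpb*ΔM, so the block takes up their levels. The macrophage genotype effect under the block therefore rests on the same-numbered libraries alone. It leaves out *Cebpb*ΔM 6 and 7, the *Cebpb*ΔM libraries highest in *Ido1* (26.1 and 20.5 CPM). The log2 fold change of *Ido1* under the block was -2.17 in MECs and -3.45 in macrophages (QL test adjusted P = 0.0510 in macrophages). This was the smallest adjusted P of *Ido1* in macrophages over the alternatives, which reached 0.972.

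With the epithelial markers as a covariate in macrophages, added after the data were seen, the log2 fold changes of *Kynu* (-2.07), *Kmo* (-0.0812) and *Ahr* (-0.15) changed sign. The epithelial marker sums did not overlap between genotypes, so this setting cannot tell epithelial content from genotype. With a library left out, these log2 values also changed sign. Between genotypes in MECs, *Kynu* ranged from -1.79 to 0.70, *Kyat1* from -0.18 to 0.22 and *Kyat3* from -0.0834 to 0.54. Between genotypes in macrophages, *Ido1* ranged from -2.24 to 2.64, *Afmid* from -0.86 to 0.21 and *Kynu* from -0.73 to 0.60. Between cell types in WT, *Afmid* ranged from -0.41 to 0.66, *Kyat1* from -0.0203 to 0.24 and *Kyat3* from -0.0816 to 0.32. Between cell types in *Cebpb*ΔM, *Kynu* ranged from -2.23 to 0.99, *Kyat3* from -0.19 to 0.49 and *Ahr* from -0.22 to 0.59. For the difference between genotype effects, *Afmid* ranged from -1.04 to 0.0317, *Kynu* from -1.10 to 7.66, *Kmo* from -1.06 to 2.16 and *Kyat3* from -0.28 to 0.40. None of these had passed the threshold. Where a genotype keeps 1 library, that library is assumed to vary like the others. With 2 libraries a group, depth limits what can be shown for *Ido2*, *Aadat*, *Kynu* and, in MECs, *Kmo*.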
